A study of Mus musculus with 15 samples.

Results

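The 10 genes examined were 9 immediate-early genes and Ctgf (Fos, Fosb, Fosl2, Jun, Junb, Egr1, Ier2, Klf6, Myc and Ctgf), out of 27554 genes or single-probe transcripts tested. They were taken by name: every non-control probe of the array carrying one of these gene names was collected (11 probes), and where a gene had more than 1, as for Fosl2, the brightest stood for it. All 10 genes had such a probe, and it was well above background on all 15 arrays. None was lost to the filter on dim probes.

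Immediate-early genes are transcribed within minutes of a hormone, growth factor, nutrient or stress signal, without the need for new protein. Many of them encode transcription factors: FOS and JUN proteins pair to form AP-1, EGR1 is a zinc finger factor, KLF6 belongs to the Krüppel-like factors, and MYC drives growth and ribosome production. In liver they are known from regeneration, from fasting and glucagon signalling through cAMP, and from injury. Ctgf, now named Ccn2, encodes a secreted matricellular protein whose transcription is raised by YAP with TEAD factors and by TGF-beta.

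The arrays measured liver RNA of C57BL/6J mouse pups on postnatal day 1, 1 single-colour Agilent array per pup. The hypoglycaemic KO group (n = 7) and the normoglycaemic KO group (n = 3) had inherited from their mother a chromosome lacking the miR-379/miR-410 cluster, a large group of imprinted microRNA genes expressed from the maternal copy. The wild-type group (n = 5) were their littermates. Blood glucose was 9 to 33 mg/dl in hypoglycaemic KO pups, 44 to 56 mg/dl in normoglycaemic KO pups and 50 to 72 mg/dl in wild-type pups, and the series' design text calls the first of these ranges severe and the middle one mild hypoglycaemia. By their labels, both KO groups carry the same deletion and were separated by blood glucose. The protocols describe natural delivery and free access to food for the colony. The labels do not give the sex or the litter of a pup.

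Levels are given as log2 of the processed spot signal over the 75th percentile of that array, so that 0 is the 75th percentile and each unit is a doubling. A level is compared only with levels of the same probe. The 75th percentile lay between 662.6 and 911.8 intensity units, and 57.9% to 76.2% of probes were well above background per array. All 12 hepatocyte markers on a list (Alb and other liver genes) were well above background on all 15 arrays. Mirg, a microRNA host transcript of the cluster, read -3.02 to -1.23 in 6 of the 7 hypoglycaemic KO livers, -2.8 to -2.68 in normoglycaemic KO livers and 0.88 to 1.6 in wild-type livers. In the library labelled hypoglycaemic KO replicate 2 it read 0.66, which goes against its label. A difference without that library is therefore also given for Fos, Fosl2, Egr1, Klf6, Myc and Ctgf. Other values, counts and glucose slopes include it unless stated. Ddx3y, a Y-linked gene, was high (1.85 to 2.32) in 2 hypoglycaemic KO, 2 normoglycaemic KO and 1 wild-type library, so that both sexes are present and unevenly spread. Pancreatic acinar markers stood high in 3 libraries, normoglycaemic KO replicate 2, hypoglycaemic KO replicate 3 and wild-type replicate 2, with mean levels of 5.25, 2.26 and 2.21 against -3.5 to -0.13 in the other 12.

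Upstream sequences were taken from the RefSeq promoter table (GRCm38.p6) for 6 of the 10 genes: Fos, Fosb, Fosl2, Jun, Junb and Klf6. Those of Egr1, Ier2, Myc and Ctgf were not examined. The 250 bases before the transcription start of Fos are shown with those of the 3 other genes of the 6 whose levels were most like its own over the 15 arrays, Fosl2, Klf6 and Jun (Pearson r = 0.903, 0.828 and 0.715), and because cAMP signalling is known to act on Fos through such sequences. Capitals mark, on the strand printed, the CREB-type sequences TGACNTCA (N is any base) and TGACG and the TATA sequence TATAAA.
Fos, chr12:85473640-85473889, plus strand: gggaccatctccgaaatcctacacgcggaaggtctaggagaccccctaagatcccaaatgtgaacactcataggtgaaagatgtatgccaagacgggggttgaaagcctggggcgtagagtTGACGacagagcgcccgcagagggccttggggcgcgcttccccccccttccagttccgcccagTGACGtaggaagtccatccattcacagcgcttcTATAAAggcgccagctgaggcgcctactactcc
Fosl2, chr5:32136222-32136471, plus strand: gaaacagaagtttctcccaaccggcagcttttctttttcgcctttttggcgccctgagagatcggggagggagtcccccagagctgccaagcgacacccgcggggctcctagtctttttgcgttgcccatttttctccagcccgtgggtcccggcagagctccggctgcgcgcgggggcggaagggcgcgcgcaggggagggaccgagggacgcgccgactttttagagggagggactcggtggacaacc
Klf6, chr13:5861239-5861488, plus strand: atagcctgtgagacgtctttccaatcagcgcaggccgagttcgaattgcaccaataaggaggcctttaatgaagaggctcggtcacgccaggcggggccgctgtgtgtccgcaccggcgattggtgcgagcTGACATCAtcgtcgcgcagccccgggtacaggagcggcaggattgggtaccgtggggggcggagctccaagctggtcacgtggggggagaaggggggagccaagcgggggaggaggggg
Jun, chr4:95052223-95052472, minus strand: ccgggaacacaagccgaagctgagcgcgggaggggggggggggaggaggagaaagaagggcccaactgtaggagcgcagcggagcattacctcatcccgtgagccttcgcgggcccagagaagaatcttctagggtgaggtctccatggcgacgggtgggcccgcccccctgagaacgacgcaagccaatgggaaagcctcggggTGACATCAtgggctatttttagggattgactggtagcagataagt
In the Fos window TGACG begins at positions -129 and -66, counted from the transcription start, and TATAAA begins at -33. The sequence matching TGACNTCA lies at -119 to -112 in Klf6 and at -45 to -38 in Jun. The Fosl2 window, of the gene most like Fos among the 6 with a window, holds none of the 3 sequences and so has no capitals. Searched on both strands, TGACNTCA was present in 7.49%, TGACG in 17.8% and TATAAA in 12.4% of 32851 RefSeq windows of this length, and the motifs overlap where N is G. Of the other motifs searched, the AP-1 site TGANTCA (6.75% of windows), the TEAD site GGAATG (12.6%) and the CArG box (1.47%) were in none of the 6 windows. The E-box CACGTG (6.02%) was in that of Klf6 and the EGR site GCGNGGGCG (4.7%) in those of Fosb and Fosl2. TGACG also stood once in the Fosb and once in the Junb window. The motifs were chosen with these windows in view, and a match describes letters only.

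Fos, which encodes an AP-1 subunit and is a standard marker of an acute stimulus, had the largest SD of the 10 genes among hypoglycaemic KO livers (1.09), while the range was wider for Jun. Its level was -0.02, -1.43, -0.03, -2.15, 0.15, -2.17 and 0.15 in hypoglycaemic KO replicates 1 to 7, -1.31, -2.49 and -3.00 in normoglycaemic KO livers, and -2.50, -2.43, -1.94, -2.29 and -3.37 in wild-type livers. Hypoglycaemic KO replicates 1, 3, 5 and 7 lay close to each other and above every wild-type and normoglycaemic KO liver, replicate 2 lay between these and the wild-type livers, and replicates 4 and 6 lay inside the wild-type range. The group means differed by 1.72 (SE 0.49), a 3.3-fold higher level in hypoglycaemic KO livers (limma, adjusted p = 0.115 over all genes). Over 29 alternative settings this difference lay between 1.355, with normexp background correction, and 1.953, and it passed the threshold in 0 of them. The probe (chr12:86817900-86817959, mm9) is printed on 10 spots of each array, and the SD between these spots was 0.043 to 0.229, with a median of 0.086. Against normoglycaemic KO livers the difference was 1.48 (SE 0.58, adjusted p = 0.187), and between normoglycaemic KO and wild type it was 0.24 (SE 0.61, adjusted p = 0.996). Without the library labelled replicate 2 the difference of hypoglycaemic KO from wild type was 1.83.

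Fosl2, which encodes the FOS-related subunit FRA-2, followed the same livers. It read 0.39, 0.10, 1.03, -0.16, 1.01, -0.10 and 0.78 in hypoglycaemic KO replicates 1 to 7, -0.12, -0.68 and -0.43 in normoglycaemic KO livers, and -0.14, -0.58, -0.28, -0.03 and -0.41 in wild-type livers. Replicates 4 and 6, low for Fos, were again the lowest of their group and inside the wild-type range, and the other 5 lay above all wild-type livers. The difference from wild type was 0.72 (SE 0.22, 1.65-fold; limma adjusted p = 0.125). Against normoglycaemic KO livers it was 0.84 (SE 0.26, adjusted p = 0.123). Leaving out the library labelled hypoglycaemic KO replicate 2, the Fosl2 difference from wild type was 0.778 (limma adjusted p = 0.1135). A dimmer Fosl2 probe was well above background in 5 of 7 hypoglycaemic KO, 2 of 3 normoglycaemic KO and 1 of 5 wild-type livers. It was below that mark in 4 of 5 wild-type livers, so no difference is given for it. With the mean of both probes in place of the brightest, the Fosl2 difference was 0.48 from wild type (adjusted p = 0.326) and 0.57 from normoglycaemic KO livers (adjusted p = 0.313), and neither kept an unadjusted p under 0.05.

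Fosb, Jun and Junb, the remaining AP-1 subunits, differed less or less evenly. Jun, the main partner of FOS, read 2.18, 2.81, 2.23, 1.82, 4.60, 1.92 and 2.77 in hypoglycaemic KO replicates 1 to 7, 2.39, 1.55 and 1.57 in normoglycaemic KO livers, and 1.74, 1.42, 2.11, 2.35 and 1.46 in wild-type livers. Replicate 5 stood far above the next highest liver, and 4 of the 7 lay inside the wild-type range. The difference from wild type was 0.81 (SE 0.41; limma adjusted p = 0.304), and it was 0.48 without replicate 5. Junb was both highest and lowest in the hypoglycaemic KO group, at -2.31 in replicate 5 and -4.56 and -4.19 in replicates 4 and 6, against -4.05 to -3.37 in normoglycaemic KO livers and -4.01 to -3.26 in wild-type livers. Its group means differed by 0.17 (SE 0.32, adjusted p = 0.812). Fosb lay between -4.05 and -2.92 in hypoglycaemic KO livers, between -3.63 and -3.33 in normoglycaemic KO livers and between -4.01 and -3.16 in wild-type livers, a difference from wild type of 0.28 (SE 0.18, adjusted p = 0.412).

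**Figure D1:**
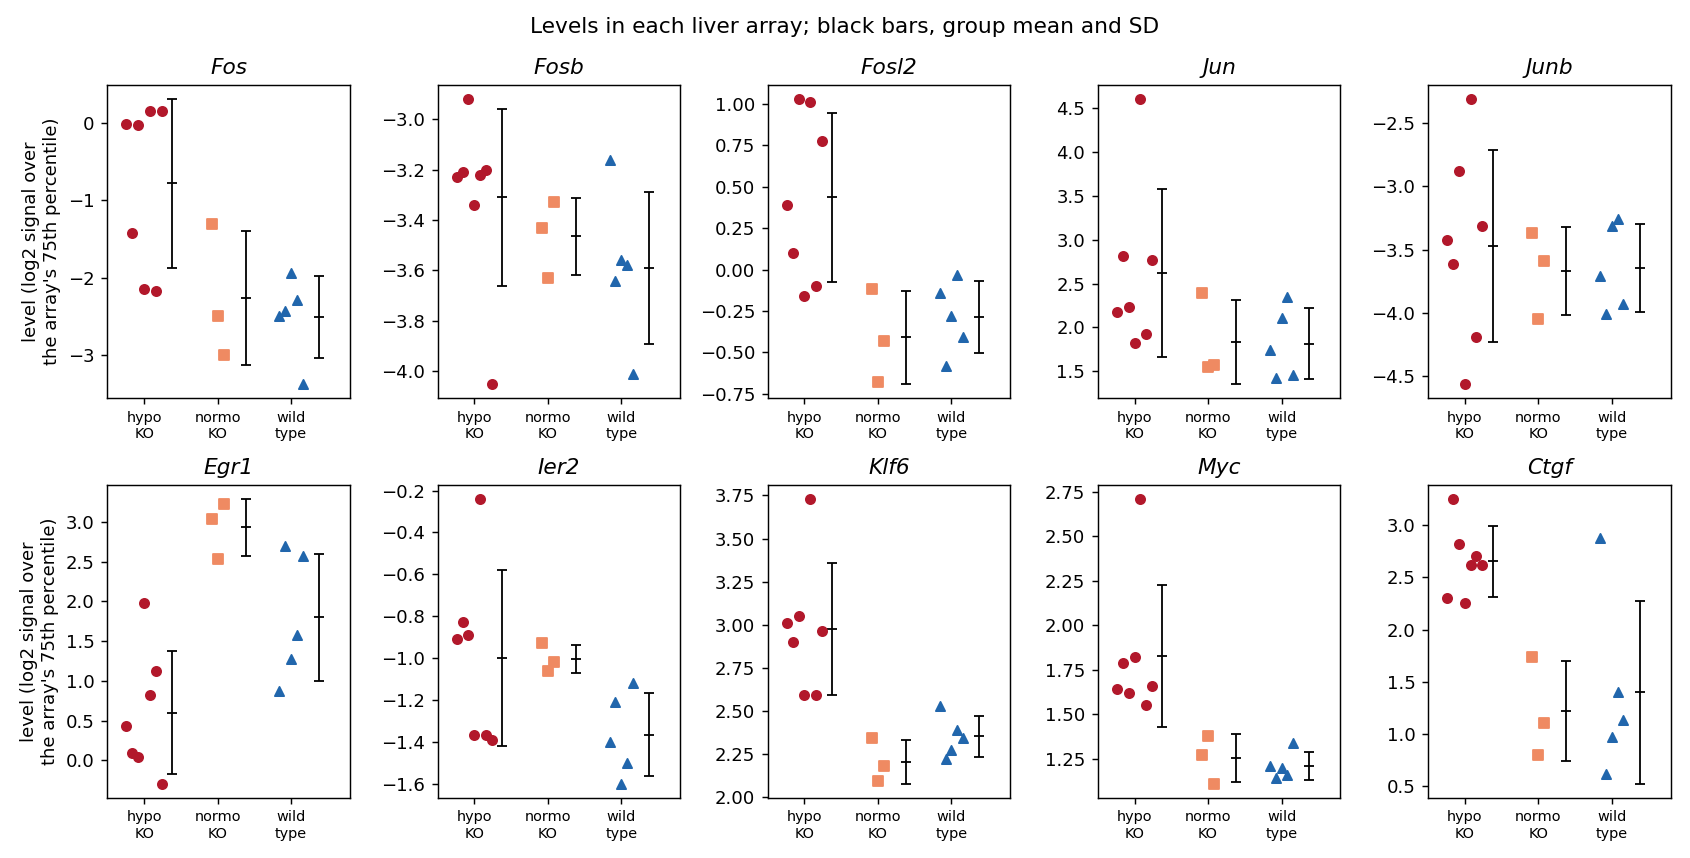
Level of each gene in each liver array (log2 of the processed signal over the array's 75th percentile), with hypoglycaemic KO (circles, n = 7), normoglycaemic KO (squares, n = 3) and wild type (triangles, n = 5) from left to right and replicates in number order within a group; black bars are group means and SD. Fos splits the hypoglycaemic KO livers into 4 high, 1 intermediate and 2 at wild-type level, and Egr1 is the gene whose hypoglycaemic KO livers lie low.

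Egr1, a zinc finger transcription factor usually induced together with Fos, ran opposite to it. It read 0.43, 0.10, 0.05, 1.98, 0.82, 1.13 and -0.29 in hypoglycaemic KO replicates 1 to 7, 3.04, 2.53 and 3.22 in normoglycaemic KO livers, and 0.87, 2.69, 1.28, 1.58 and 2.57 in wild-type livers. All 7 hypoglycaemic KO livers lay below all 3 normoglycaemic KO livers, and 5 of the 7 lay below every wild-type liver. The 2 that did not were replicates 4 and 6, the livers with Fos at the wild-type level. Egr1 was 5.03-fold lower in hypoglycaemic than in normoglycaemic KO livers, a difference of -2.33 (SE 0.47; limma adjusted p = 0.0685), and 2.29-fold lower than in wild type (-1.2, SE 0.4; adjusted p = 0.147). Normoglycaemic KO livers read 2.2-fold higher than wild type (1.14, SE 0.5; adjusted p = 0.965). The first of these differences lay between -2.67 and -2.15 over 29 alternative settings and passed the threshold in 5 of them, with adjusted p from 0.0107 to 0.535. The 5 were normexp background correction (0.0451, against 0.515% of all genes called), genes above background on all arrays (0.0402, against 0.785%), array weights (0.0107, against 7.63%), leaving out wild-type replicate 2 (0.042, against 1.09%) and leaving out hypoglycaemic KO replicate 4 (0.0157, against 3.44%). The adjusted p was 0.194, 0.36 and 0.144 without normoglycaemic KO replicates 1, 2 and 3 in turn, and 0.357 without the 3 libraries richest in acinar markers. The difference was -2.15 within slide 1 and -2.67 within slide 2. Without the library labelled replicate 2 it was -2.25 (adjusted p = 0.0907).

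**Figure D2:**
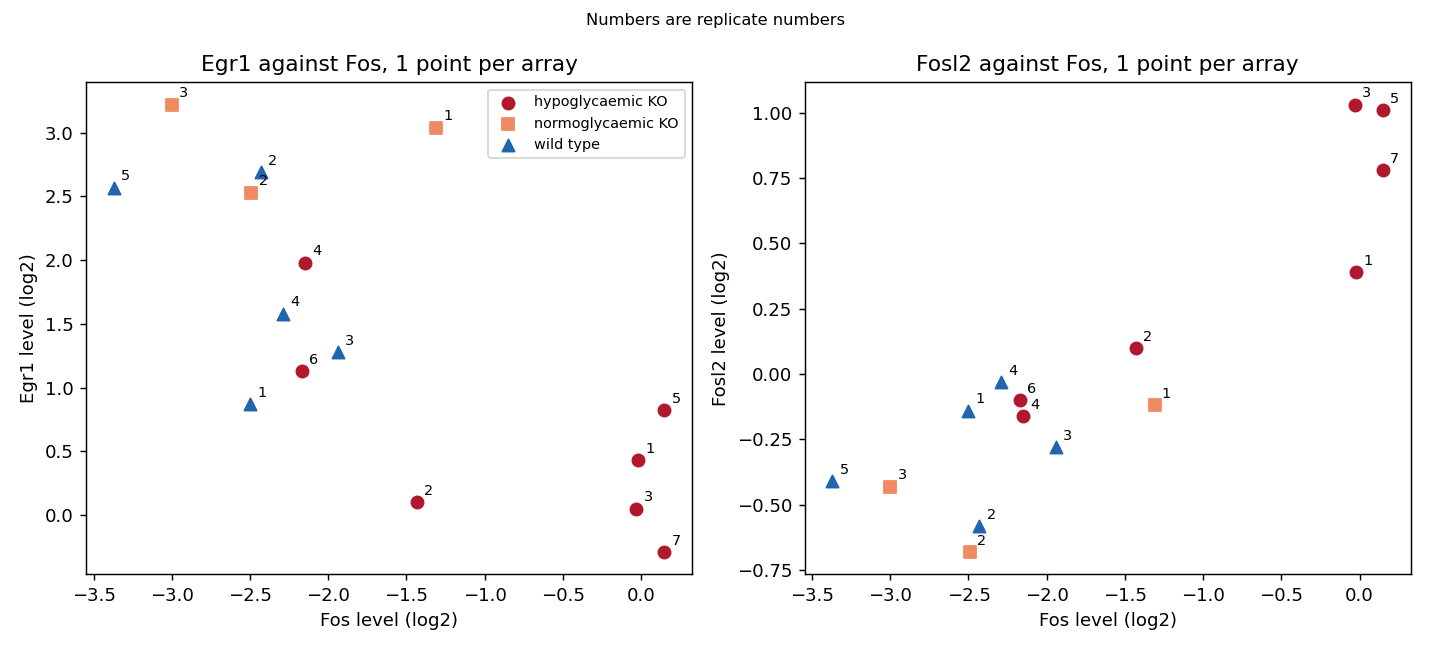
Egr1 (left) and Fosl2 (right) against Fos in each of the 15 arrays (log2 levels on both axes; hypoglycaemic KO circles, normoglycaemic KO squares, wild-type triangles; numbers are replicates). The 4 hypoglycaemic KO livers with Fos near 0 have Egr1 at 0.82 or below and Fosl2 at 0.39 or above, and replicates 4 and 6 lie among the wild-type livers in both.

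Ier2, a small immediate-early nuclear protein gene, read -0.91, -0.83, -0.89, -1.37, -0.24, -1.37 and -1.39 in hypoglycaemic KO replicates 1 to 7, -0.93, -1.06 and -1.02 in normoglycaemic KO livers, and -1.40, -1.21, -1.60, -1.50 and -1.12 in wild-type livers. It was the only one of the 10 genes for which all 3 normoglycaemic KO livers lay above all 5 wild-type livers. Its differences from wild type were 0.37 (SE 0.18, adjusted p = 0.289) for hypoglycaemic and 0.36 (SE 0.22, adjusted p = 0.965) for normoglycaemic KO livers, and the KO groups differed from each other by 0.004 (95% confidence interval -0.45 to 0.46).

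Klf6 and Myc separated hypoglycaemic KO livers from both other groups without overlap. Klf6, a Krüppel-like factor induced on liver injury (probe at chr13:5869371-5869430, mm9), read 3.01, 2.90, 3.05, 2.59, 3.73, 2.59 and 2.96 in hypoglycaemic KO replicates 1 to 7, 2.34, 2.09 and 2.18 in normoglycaemic KO livers, and 2.53, 2.22, 2.27, 2.39 and 2.34 in wild-type livers. Replicates 4 and 6 were again the lowest of their group, this time just above the highest wild-type liver. Klf6 differed by 0.63 from wild type (SE 0.16, 1.54-fold; limma adjusted p = 0.098) and by 0.78 from normoglycaemic KO livers (SE 0.19; adjusted p = 0.0898). Against wild type it passed in 2 of 29 alternative settings, with array weights (adjusted p = 0.0451) and without hypoglycaemic KO replicate 4 (0.048, against 1.99% of all genes), and the adjusted p ranged up to 0.761. Leaving out the library labelled hypoglycaemic KO replicate 2, the Klf6 difference from wild type was 0.641 (limma adjusted p = 0.0943).

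Myc, the growth-promoting transcription factor (probe at chr15:61821417-61821476, mm9, on 2 spots), read 1.64, 1.79, 1.62, 1.82, 2.71, 1.55 and 1.66 in hypoglycaemic KO replicates 1 to 7, 1.27, 1.38 and 1.11 in normoglycaemic KO livers, and 1.21, 1.14, 1.20, 1.16 and 1.34 in wild-type livers. Replicate 4, low for Fos, was the second highest for Myc, so that the order of livers differed from that of Fos. Replicate 5 stood far above it. Myc differed by 0.62 from wild type (SE 0.17, 1.53-fold; limma adjusted p = 0.103) and by 0.57 from normoglycaemic KO livers (SE 0.2; adjusted p = 0.146). The wild-type spread was the narrowest of the 10 genes (SD 0.08, n = 5). Leaving out the library labelled hypoglycaemic KO replicate 2, the Myc difference from wild type was 0.625 (limma adjusted p = 0.106).

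Ctgf was high in every hypoglycaemic KO liver, also in those with low Fos. Its probe (chr10:24318281-24318340, mm9) read 2.30, 3.25, 2.82, 2.25, 2.62, 2.70 and 2.62 in hypoglycaemic KO replicates 1 to 7, 1.74, 0.80 and 1.11 in normoglycaemic KO livers, and 2.88, 0.62, 0.97, 1.40 and 1.13 in wild-type livers. Wild-type replicate 1 lay within the hypoglycaemic KO range, and all other wild-type and normoglycaemic KO livers lay below it. Ctgf differed by 1.25 from wild type (SE 0.33, 2.38-fold; limma adjusted p = 0.0991) and by 1.44 from normoglycaemic KO livers (SE 0.38, 2.71-fold; adjusted p = 0.0976). Without wild-type replicate 1 the difference from wild type was 1.62 and passed the threshold (adjusted p = 0.0293, against 2.72% of all genes). Over 29 alternative settings it passed in 2, with adjusted p from 0.0293 to 0.761. Without the library labelled hypoglycaemic KO replicate 2, which had the highest Ctgf, it was 1.15 (adjusted p = 0.108).

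**Figure D3:**
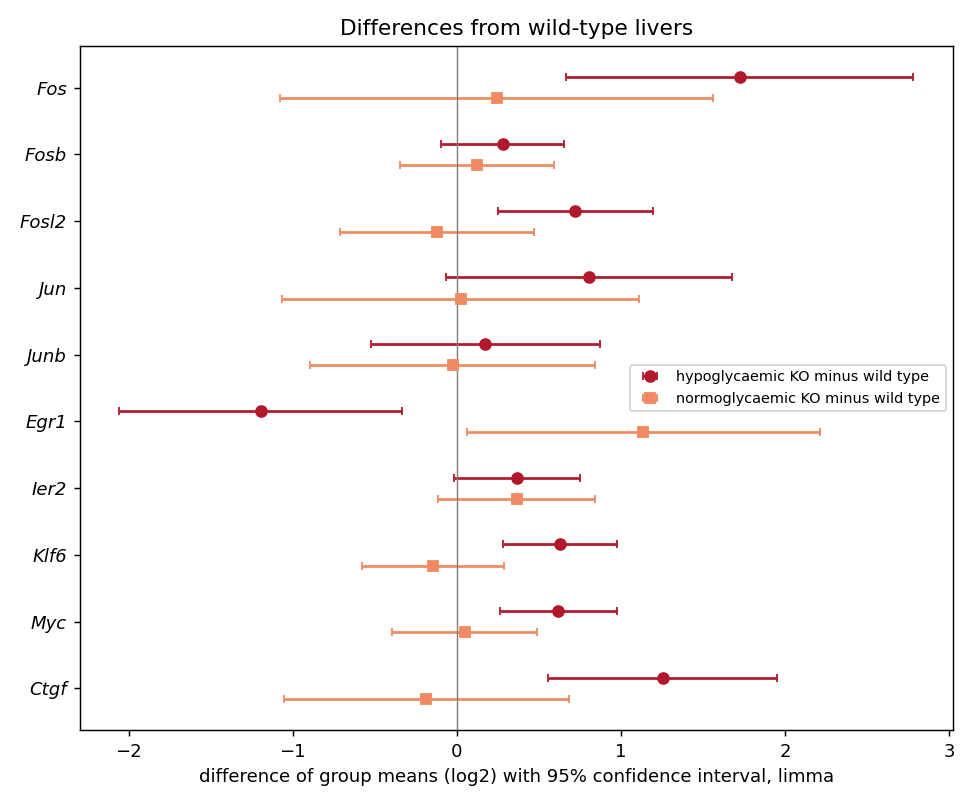
Differences of group means from wild type (log2, with 95% confidence intervals from limma) for hypoglycaemic KO livers (circles, upper) and normoglycaemic KO livers (squares, lower). The intervals of Fos, Fosl2, Klf6, Myc and Ctgf lie above 0 and that of Egr1 below 0 for hypoglycaemic KO, before adjustment over all genes; for normoglycaemic KO only that of Egr1 excludes 0.

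Over all genes, none of the 10 passed an adjusted p of 0.05 between hypoglycaemic KO and wild type, a threshold that 0.0181% of 27554 genes passed. With array weights, which give arrays far from their group less weight, Ctgf and Klf6 passed, against 2.7% of all genes under that setting. At an unadjusted limma p under 0.05 there were 5 higher (Fos, Fosl2, Klf6, Myc and Ctgf) and 1 lower (Egr1), against 18.7% of all genes (9.69% higher and 8.97% lower). The median difference of the 10 genes was 0.62, with 9 above 0, and that of all genes was 0.016, with 52.7% above 0. Groups without overlap were found for Klf6 and Myc, against 1.46% of the genes with a value on every array of both groups. Between normoglycaemic KO and wild type 0 of 10 passed, with 0% of all genes (1 gene, none of the 10, with the replicate number as a block), and only Egr1 had an unadjusted p under 0.05 (higher), against 4.79% of all genes (3.07% higher and 1.72% lower). The median of the 10 was 0.035, and groups without overlap were found for Ier2 alone, against 3.83% of genes. Between the KO groups 0 of 10 passed, with 0.0544% of all genes. Here 5 were higher and 1 lower at an unadjusted p under 0.05, against 19.3% of all genes (9.36% higher and 9.97% lower). The groups did not overlap for Ctgf, Klf6 and Myc (higher) and Egr1 (lower), against 9.07% of genes. These comparisons share groups with each other, so that they are no independent evidence.

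Counted liver by liver, 7 of the 10 genes lay above the wild-type range in hypoglycaemic KO replicates 2, 3 and 5, against 20.8%, 21.8% and 23.6% of all genes in the same livers. In replicates 1 and 7 there were 5, against 26.5% and 22.6%. In replicates 4 and 6 there were 2, Klf6 and Myc, against 17.6% and 17.2%, so that their count is near that of all genes. Below the range lay Egr1 in replicates 1, 2, 3, 5 and 7, Junb in replicates 4 and 6 and Fosb in replicate 7, against 12.3% to 26.3% of all genes. Normoglycaemic KO replicate 1 had 4 genes above the range (Fos, Jun, Egr1 and Ier2) and 0 below. Replicate 2 had 2 above (Ier2 and Myc) and 3 below (Fosl2, Junb and Klf6), and replicate 3 had 2 above (Egr1 and Ier2) and 2 below (Klf6 and Myc). Of all genes, 14.4% to 18.1% lay above and 9.98% to 18.1% below the range in these 3 livers. Blood glucose was 33 and 26 mg/dl in hypoglycaemic KO replicates 4 and 6, 29 mg/dl in replicate 7, whose Fos level was high, and 9 to 16 mg/dl in the other 4.

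Within groups, with a common slope for all 3 groups, none of the 10 slopes on blood glucose passed an adjusted p of 0.05, a threshold that 0% of all genes passed. At an unadjusted limma p under 0.05 there were 4 with a negative and 1 with a positive slope, against 18.1% of all genes (9.97% with a negative and 8.11% with a positive slope). Junb had the smallest p, with a slope of -0.44 per 10 mg/dl (SE 0.14; limma adjusted p = 0.118): within a group its level was higher in pups with lower glucose, while its means in hypoglycaemic KO and wild-type livers differed by 0.17. Fosb (-0.21), Fosl2 (-0.25) and Klf6 (-0.17) sloped the same way, with adjusted p from 0.196 to 0.273. Egr1 sloped upwards with glucose, by 0.45 per 10 mg/dl (SE 0.19; adjusted p = 0.229), and the slope moved when single livers were left out: it was 0.61 without hypoglycaemic KO replicate 7 (adjusted p = 0.0461, against 3.56% of all genes called there) and 0.3 without hypoglycaemic KO replicate 4 (adjusted p = 0.548). For Myc the slope was -0.032 (95% confidence interval -0.23 to 0.17).

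**Figure D4:**
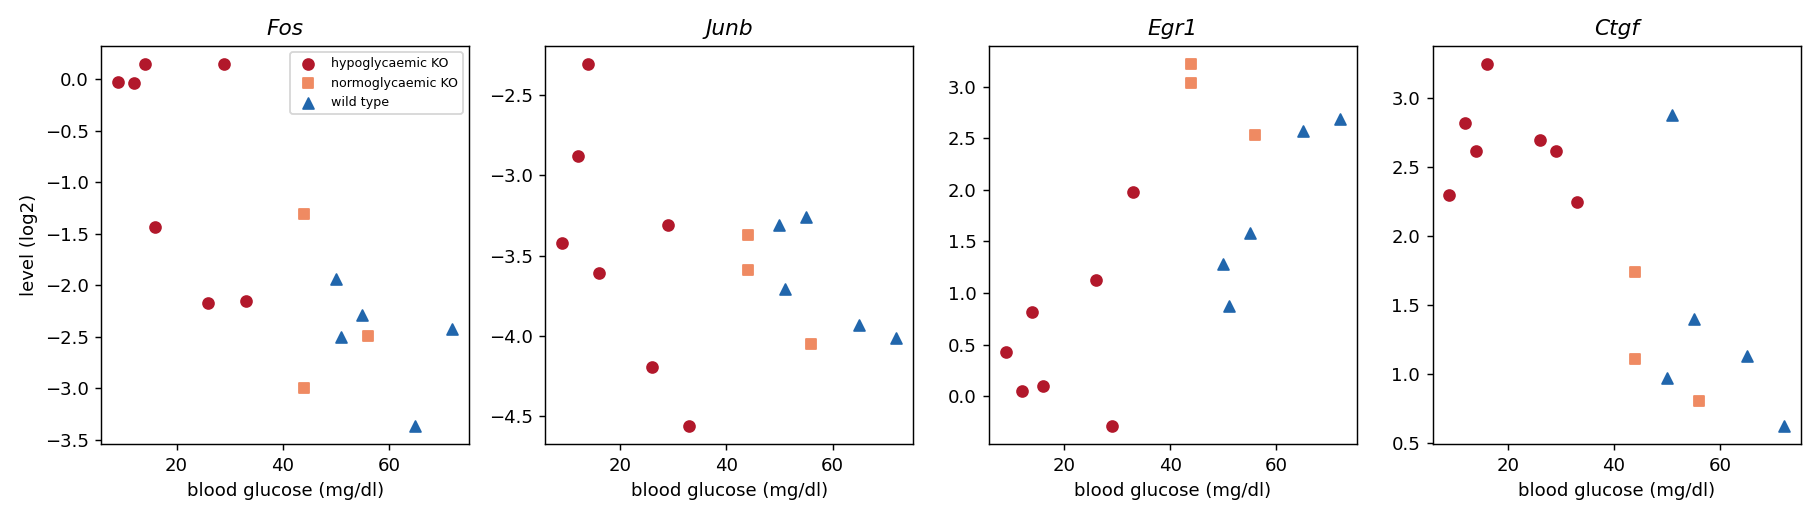
Levels of Fos, Junb, Egr1 and Ctgf (log2) against blood glucose (mg/dl) in the 15 pups; hypoglycaemic KO circles, normoglycaemic KO squares, wild-type triangles. Within the hypoglycaemic KO group Fos and Junb are lowest in the pups at 26 and 33 mg/dl, Egr1 is highest in the pup at 33 mg/dl, and Ctgf lies between 2.25 and 3.25 throughout.

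The arrays lay on 2 slides, slide 1 with 4 hypoglycaemic KO, 2 normoglycaemic KO and 2 wild-type livers and slide 2 with 3, 1 and 3. The difference of hypoglycaemic KO from wild type was 1.56 on slide 1 and 1.91 on slide 2 for Fos, 0.7 and 0.8 for Fosl2, 0.51 and 0.76 for Klf6, 0.54 and 0.74 for Myc, 0.91 and 1.48 for Ctgf, and -1.14 and -1.25 for Egr1. Between the KO groups it was 0.67 and 0.92 for Klf6, 0.39 and 0.86 for Myc, and 1.39 and 1.54 for Ctgf. The glucose slope was -0.43 and -0.69 for Junb and 0.67 and 0.18 for Egr1. The difference between slides in the effect of hypoglycaemic KO against wild type passed no threshold for any of the 10 genes (unadjusted limma p from 0.435 to 0.996).

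As a description over the 15 arrays, which share groups and slides, the genes whose levels were most like those of Fos among 14771 named genes above background on all arrays were Rgs1 (Pearson r = 0.965), Plcl1 (0.947), Dusp1 (0.943), Rasd1 (0.929) and Ap1s2 (0.929). Dusp1 encodes a phosphatase that switches off MAP kinases and Rasd1 a dexamethasone-induced Ras protein. Fosl2 was 17th for Fos (r = 0.903), Klf6 200th (0.828), and Egr1 near the opposite end (r = -0.718). The genes most like Ctgf were Zfp36l2 (0.934), Irak1 (0.927), Imp3 (0.921), Rps9 (0.913) and Trak1 (0.91). Fos was 2349th in that order (r = 0.582), and Egr1 again ran opposite (r = -0.783).

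The wider pathways were read from lists, whose members were counted for hypoglycaemic KO against wild type. In these 12 pathway lists 0 members passed the adjusted threshold, and higher or lower refers to an unadjusted limma p under 0.05, which 18.7% of all genes had. The share of members with such a p was 20% in the EGR, 18.2% in the TGF-beta and 15.4% in the heat shock list, near that of all genes, and 23.1% to 33.3% in the lists of MYC partners, CCN genes, YAP and TEAD, AP-1, Krüppel-like factors and MAP kinase inhibitors. It was 45% among other immediate-early genes, 53.6% among MYC targets and 73.1% among glucagon and glucocorticoid response genes. Lists share members, such as Cebpd in the first and last of these, so their shares are not independent. Of 17 other AP-1 family genes, 4 were higher and 1 lower, with a median difference of 0.034. Jdp2, an AP-1 repressor, read 0.96 ± 0.51 in hypoglycaemic KO livers and 0.2 ± 0.25 in wild-type livers (SD, n = 7 and n = 5; limma adjusted p = 0.118). Jund differed by 0.49 and Maff by 0.97, both upwards, and Batf3 by -0.68. The EGR family with its upstream regulators (20 measured) had 2 higher and 2 lower and a median of 0.006. Nab1, a corepressor of EGR proteins, read 1.1 ± 0.29 in hypoglycaemic KO livers and 1.52 ± 0.12 in wild-type livers (adjusted p = 0.125). Elk4 differed by 0.22 and Rps6ka3, a kinase downstream of ERK, by 0.28. Egr2 was well above background on only 7 arrays.

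Of 40 other immediate-early genes measured, 13 were higher and 5 lower, and the median was 0.22 with 27 above 0. Phlda1 (-1.52, SE 0.34, adjusted p = 0.0863) and Irf1 (-0.76, SE 0.13, adjusted p = 0.0591), an interferon-responsive transcription factor, read lower in hypoglycaemic KO livers, as Egr1 did. Cebpd (1.18, SE 0.28, adjusted p = 0.0887) and Zfp36l2 (0.34, SE 0.07, adjusted p = 0.0857) read higher. Among 15 feedback inhibitors of MAP kinase, 4 were higher and 1 lower. Dusp1 read 1.35 ± 0.79 in hypoglycaemic KO livers, 0.12 ± 0.51 in normoglycaemic KO livers and 0.23 ± 0.38 in wild-type livers (difference from wild type 1.12, adjusted p = 0.128). Dusp6, a phosphatase induced by ERK, read 2.48 ± 0.23 in hypoglycaemic KO and 2.84 ± 0.1 in wild-type livers (-0.36, adjusted p = 0.124). Errfi1, an inhibitor of the EGF receptor, differed by 0.59 and Dusp16 by 0.3.

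The known regulators of Ctgf were read from the next lists. Of 33 YAP and TEAD pathway genes and targets, 7 were higher and 2 lower, with a median of 0.04. Wwtr1, which encodes TAZ, differed by 0.51 and Amotl1, a binding partner of YAP, by 0.64, while Tead2 differed by -0.43 and Nt5e by -0.55. Of 22 TGF-beta ligands, receptors and targets 2 were higher and 2 lower. Pmepa1, a TGF-beta target, read -2.87 ± 0.51 in hypoglycaemic KO livers and -1.95 ± 0.31 in wild-type livers (-0.92, adjusted p = 0.0942), and Smad3 differed by -0.23 (adjusted p = 0.138), both opposite to Ctgf. Skil, a TGF-beta target that represses SMAD proteins, differed by 0.48 (adjusted p = 0.131) and Smad4 by 0.3 (adjusted p = 0.18), in the same direction as Ctgf. In the CCN family, Ccn1, like Ctgf a known YAP target, differed by 0.47 (SE 0.24, adjusted p = 0.313) and Ccn4 by -1.13 (SE 0.38, adjusted p = 0.149). Ccn6 was well above background on 3 arrays, all of them hypoglycaemic KO, and Ccn3 on 6, so no fold is given.

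Of 28 MYC targets of ribosome assembly and growth, 14 were higher and 1 lower, 22 lay above 0 and the median was 0.19. Gnl3, a nucleolar GTPase gene, read 2.25 ± 0.16 in hypoglycaemic KO livers, 1.97 ± 0.12 in normoglycaemic KO livers and 1.67 ± 0.28 in wild-type livers (difference from wild type 0.58, SE 0.12, adjusted p = 0.0844). Nop58 differed by 0.33, Polr1b by 0.38 and Ppan by 0.41. The same list had 25 of 28 above 0 in normoglycaemic KO against wild type (median 0.15), where Myc itself differed by 0.047. Among 13 MYC partners and antagonists 2 were higher and 1 lower, with Max at 0.17, Mlxip at 0.51 and Mlxipl, the glucose-sensing factor ChREBP, at -0.52.

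Of 16 other Krüppel-like factors 3 were higher and 2 lower. Klf9 and Klf15, both glucocorticoid-induced, differed by 0.73 and 0.72 from wild type and by 1.46 and 1.45 from normoglycaemic KO livers, and Klf10 by -0.6 from wild type. Of 13 heat shock genes 2 were higher and 0 lower (Hspa4, 0.21; Hspb1, 0.55), with a median of 0.029. Glucagon and glucocorticoid response genes were all measured (26), and 26 lay above 0 with a median of 0.8, 19 of them higher. Ddit4 read 5.61 ± 1.03 in hypoglycaemic KO livers, 2.95 ± 0.21 in normoglycaemic KO livers and 3.03 ± 0.51 in wild-type livers (adjusted p = 0.0591 against wild type). In normoglycaemic KO livers 23 of the 26 lay below 0 against wild type, with a median of -0.32.

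Of the marker lists for other cell types, that of natural killer and T cells had the smallest p for hypoglycaemic KO against wild type. The mean level of these 12 markers (10 of them well above background on all arrays) was -2.02 to -1.2 in hypoglycaemic KO livers, -1.34 to -1.17 in normoglycaemic KO livers and -1.13 to -0.72 in wild-type livers. The difference from wild type was -0.68 (p = 0.00253 by a 2-sided exact permutation test over samples), and 11 of the 12 lay below 0. Adjusted for the 39 tests of array measures, this p was 0.0492. Those tests include blood glucose, by which the KO pups were separated and which had the smallest p (0.00126 by the same test). The adjusted p is under 0.05 only with the blood glucose tests counted, so the mean of the list is not taken as passing. Read singly, 8 of the 12 markers were lower at an unadjusted limma p under 0.05, against 18.7% of all genes. Of these, 1 passed the adjusted limma threshold, against 0.0181% of all genes. Granulocyte markers (12) ranged from 4.56 to 4.96 in hypoglycaemic KO and from 4.41 to 4.75 in wild-type livers (adjusted p = 0.26), and endothelial markers (12) from 1.33 to 1.66 and from 1.17 to 1.51 in the same order (adjusted p = 0.279). Stellate cell and fibroblast markers (14), cells that can express Ctgf, ranged from 0.56 to 1.38 in hypoglycaemic KO and from 1.0 to 1.31 in wild-type livers (difference -0.098, adjusted p = 0.977). Their part in the differences of the 10 genes was not tested. In whole liver, fewer cells of a type and less RNA per cell cannot be told apart. Without the 3 libraries richest in acinar markers the difference of hypoglycaemic KO from wild type was 1.61 for Fos, 0.58 for Klf6, 0.64 for Myc, 1.03 for Ctgf and -0.88 for Egr1.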

How the data were processed

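Liver RNA of 15 pups was measured on 1-colour Agilent arrays with 62976 spots each, of which 3671 were controls. The deposited intensity values (processed, mean, median and background signal) were made with Agilent Feature Extraction 10.10.1.1, per the file headers. Per the submitters' processing notes, limma (its version is not given in the sources used here) was used by the authors for the deposited log2 values. These correlated at 0.99986 to 0.99999 with the logarithm of the median signal and served as an alternative. Their scale is log2, and they cover 26747 of the genes tested.

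Here the level is log2 of the ratio of the processed signal to its 75th percentile over the non-control spots of an array. Spots flagged as non-uniform or as outliers were set to missing, spots of a probe were averaged, and probes were kept if 3 or more of the 15 arrays marked them well above background (41153 of 55681). Probes were named by accession (27235), symbol (3581) or synonym (565) in the RefSeq gene table, otherwise by the file's name (24300). The brightest probe stood for a gene. Probe coordinates are mm9, per the file headers. The 3 group means were estimated per gene in R 4.3.3 by limma 3.58.1, using lmFit and eBayes (residual degrees of freedom 12, prior 1.84). The p-values were Benjamini-Hochberg adjusted over all 27554 genes, with a threshold of 0.05. A separate model added a common blood glucose slope. Folds are back-transformed log2 differences, and negative differences are given as fold lower. Array measures and marker means were compared by exact permutation over samples. Replicate numbers come from the sample titles. Deviations of same-numbered normoglycaemic KO and wild-type livers correlated at 0.121 to 0.316 in all 3 pairs. The livers of each pair also shared a slide, and both replicates 2 were rich in acinar markers. Differently numbered livers were not compared, so these values cannot tell whether the numbers pair the groups. The labels do not say what a number marks, and the main fit used no pairing. The fits were tested on simulated data. Alternatives were normexp background correction (offset 50), quantile and median normalization, the authors' log2 values, filters on dim probes, the mean of a gene's probes, slide, slide row and replicate number as blocks, array weights, each slide alone, and leaving out each array or the 3 libraries richest in acinar markers. Python 3.11.15 with pandas 2.3.3 and matplotlib 3.10.9 collated results and drew figures.

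The 10 genes and the gene lists were chosen with earlier results of these data known. Named genes were the 10, the up to 4 list members with the smallest p between hypoglycaemic KO and wild type, and the 5 most alike genes for Fos and Ctgf. The rank of Egr1 and other members in those orders was read after the values were seen. Pups are separate animals, but the labels do not give litters. The number of arrays limits the precision.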

Additional observations from a re-analysis of the deposited data

Results flagged for a closer look

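Within the groups of 5 and 7 livers, 4 of 20 gene and group combinations had 1 liver far from the others by a Dixon test. Chance alone gives about 1 in 20 for independent combinations. These are not independent, since the genes were read in the same livers. Hypoglycaemic KO replicate 5 was far above its group for Jun (4.6, next 2.81), Klf6 (3.73, next 3.05) and Myc (2.71, next 1.82). Hypoglycaemic KO replicate 7 was far below its group for Fosb (-4.05, next -3.34). No cause was tested.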

How the results depend on the processing

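Member values were recomputed under 29 alternatives per comparison: 821 of 870 kept their direction and side of the threshold, 12 newly passed and 37 changed sign, all of these 37 uncalled. The number of the 10 genes called for hypoglycaemic KO against wild type was 0 to 1 when single arrays were left out (Ctgf without wild-type replicate 1, Klf6 without hypoglycaemic KO replicate 4) and 2 with array weights. Between the KO groups it was 0 to 2 with single arrays left out (Egr1 without wild-type replicate 2, Egr1 and Klf6 without hypoglycaemic KO replicate 4), 1 with normexp correction, 1 with genes above background on all 15 arrays and 3 with array weights. For the glucose slope it was 0 to 1 (Egr1 without hypoglycaemic KO replicate 7), and for normoglycaemic KO against wild type 0 throughout.

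Counts over all genes moved far more, which sets what an adjusted p can show. Against 5 genes called for hypoglycaemic KO against wild type, there were 68 with normexp correction, 25 with median scaling, 50 with the authors' log2 values, 2 without a filter, 91 with genes above background on all 15 arrays, 0 within slide 1, 0 within slide 2, 15 with slide row as a block, 743 with array weights, 0 without the 3 acinar-rich libraries and 0 to 750 with single arrays left out (750 without wild-type replicate 1, 548 without hypoglycaemic KO replicate 4, 138 without the library labelled hypoglycaemic KO replicate 2). For normoglycaemic KO against wild type, with 0 called, there were 2 with quantile normalization, 1 with median scaling, 2 with the authors' log2 values, 1 with genes above background on all 15 arrays, 3 within slide 2, 5 with array weights and 0 to 2 with single arrays left out. Between the KO groups, with 15 called, there were 142 with normexp correction, 5 with median scaling, 30 with the authors' log2 values, 4 without a filter, 165 with genes above background on all 15 arrays, 9 with the mean of a gene's probes, 0 with slide as a block, 0 within slide 1, 3 within slide 2, 2102 with array weights, 0 without the acinar-rich libraries and 0 to 947 with single arrays left out (947 without hypoglycaemic KO replicate 4). The cause was not tested.

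Deviations of same-numbered hypoglycaemic KO livers and livers of the other groups correlated at -0.175 to 0.272, and not over 0.1 in every pair. What the numbers mark is not known for any of the groups, so the replicate block serves as an alternative only. With the replicate block, 0 genes passed for hypoglycaemic KO against wild type, 1 for normoglycaemic KO against wild type and 0 between the KO groups, and 0 of the 10 genes in each. Ier2 then differed from wild type by 0.4 in normoglycaemic KO (adjusted p = 0.737) and by 0.52 in hypoglycaemic KO livers (adjusted p = 0.0907).

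Sign changes were of differences that lay between -0.186 and 0.243 in the main fit, and the largest value after a change was -0.459. For hypoglycaemic KO against wild type Junb was -0.015 without the acinar-rich libraries and -0.019 to 0.357 with single arrays left out. For normoglycaemic KO against wild type Jun was -0.002 with normexp correction, -0.015 with median scaling, -0.004 with the authors' log2 values, -0.397 within slide 2, -0.076 with slide row as a block and -0.252 to 0.166 with single arrays left out. Junb was 0.059 with slide as a block, 0.15 within slide 1, 0.073 without the acinar-rich libraries and -0.172 to 0.165 with single arrays left out. Fosb was -0.134 within slide 1, Fos -0.459 within slide 2 and -0.235 to 0.609 with single arrays left out, and Fosl2 -0.264 to 0.012 likewise. Myc was -0.123 within slide 2, -0.035 without the acinar-rich libraries and -0.017 to 0.119 with single arrays left out, and Ctgf 0.105 with array weights and -0.449 to 0.183. Between the KO groups Ier2 was -0.003 within slide 1, -0.026 with array weights, -0.045 without the acinar-rich libraries and -0.123 to 0.068 with single arrays left out, Fosb -0.158 within slide 2 and Junb -0.088 without the acinar-rich libraries.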
